A study of Sus scrofa with 12 samples.

Results

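The genes described here encode collagens, laminins, nidogens and integrins on the Affymetrix porcine genome array. They were chosen by symbol: every gene whose array annotation gave exactly 1 symbol of the collagen chain, laminin chain, nidogen or integrin pattern was kept, and each gene was read by its probe set with the highest mean over the 12 arrays. The choice gave 32 of the 6765 named genes, namely 15 collagens, 3 laminins, 1 nidogen, 12 integrin subunits and ITGB1BP2. ITGB1BP2 (melusin) matches the symbol pattern but binds the inner end of integrin β chains and is no integrin subunit itself. The 32 genes had 58 probe sets, and 16 genes had more than 1. The families are covered only in part. The laminin α chains, COL1A1 and NID1, for example, had no probe set with exactly 1 such symbol.

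The samples were pig cells in 4 groups with 3 arrays each. DFAT cells were mature adipocytes that had lost their fat-cell character in ceiling culture (buoyant fat cells settle on the roof of a flask filled with medium) and had then grown until semiconfluent. MA were the mature adipocytes themselves, taken from fat tissue. DFOG cells were granulosa cells dedifferentiated in culture and likewise grown until semiconfluent, and GC were the granulosa cells of ovarian follicles. No genotype, transgene or drug separates the groups in the labels. DFAT and DFOG cells had been cultured and MA and GC had not, so dedifferentiation, growth in culture and attachment to plastic cannot be told apart. Replicates are labelled biological, with no word on the animals or cultures behind them, so the p-values reflect only how these samples varied, and some of that variation may be technical.

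Collagens are 3-stranded proteins of the extracellular matrix. Fibrillar collagens (types I, II, III, V and XI) form the fibres of connective tissue, with type V starting and sizing type I fibrils. Type IV collagen and the laminins, each built of an α, a β and a γ chain, form the 2 networks of the basement membrane, which nidogens link. In fat tissue each adipocyte lies in a basement membrane of its own, whereas granulosa cells lie inside a follicle whose basement membrane surrounds the whole cell layer. Integrins are receptors of 1 α and 1 β chain that hold cells to this matrix and connect it to the actin skeleton.

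The deposited values are log2 expression values, so a difference of 1 is a doubling of signal, and each probe set is compared only with itself across groups. All fits used limma over 23999 probe sets with Benjamini-Hochberg adjustment, and a change passed at an adjusted p under 0.05. DFOG replicates 2 and 3 were almost the same array: their values differed with an SD of 0.0741 over all probe sets, against 0.31 to 0.621 in the other 11 pairs of replicates. Their mean was therefore counted as 1 sample, which left 2 DFOG samples, and values are given below for all 3 arrays. The DFAT arrays spread most, with a median SD over the 32 genes of 0.443, against 0.181 in MA, 0.207 in DFOG and 0.269 in GC. DFAT replicate 1 was the lowest DFAT array for 17 of the 32 genes. Of all values on the arrays, 25% were under 4.48. No detection calls came with them, so a level this low cannot be told from background, and a difference against such a level has no exact size.

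The labelled cell types carried their markers. ADIPOQ, the adipocyte hormone adiponectin, averaged 5.78 ± 0.94 in DFAT and 13.99 ± 0.28 in MA (SD, n = 3 each). INHA, the inhibin α chain of granulosa cells, averaged 7.44 in DFOG (n = 2) and 14.64 in GC (n = 3). Markers of other cells also moved. Of 10 macrophage and myeloid genes, 8 fell in DFAT, and the mean of the list was 4.48 to 4.68 in the DFAT arrays, against 5.74 to 6.74 in the MA arrays. All 10 were higher in MA than in GC, where the mean was 4.28 to 4.52. Of 6 stromal fibroblast and pericyte genes, 4 rose and 1 fell in DFAT (mean 9.17 to 9.91, against 7.27 to 7.99 in MA), and 5 rose in DFOG (9.27 to 9.47, against 4.79 to 5.33 in GC). Of all named genes, 20.7% rose and 20.4% fell in DFAT, 17.3% rose in DFOG, and 26.8% were higher in MA than in GC. The actin 3′ minus 5′ signal, a sign of RNA integrity that grows as RNA breaks down, was 0.33 to 0.972 in DFAT and 1.5 to 2.47 in MA, and 0.154 to 0.639 in DFOG and 0.72 to 1.76 in GC. What part these differences have in the changes of the matrix genes was not tested, beyond the fit with the actin value given below. In such bulk samples fewer cells of a type and less RNA per cell cannot be told apart.

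Collagen and integrin genes were higher after dedifferentiation in both lineages more often than lower, and 4 collagens and 5 integrins rose in both. In DFAT against MA, 12 of the 32 genes rose and 2 fell, where 20.7% of all named genes rose and 20.4% fell. In DFOG against GC, 14 rose and 2 fell, where 17.3% of all named genes rose and 13.4% fell. The median change of the 32 genes was 0.50 in DFAT against MA and 0.36 in DFOG against GC, beside -0.02 and 0.03 over all named genes. With arrays centred on the spiked-in poly-A controls instead, which moved the median of all probe sets to 0.55 in DFAT and -0.72 in DFOG, 21 rose and 1 fell in DFAT, and 11 rose and 4 fell in DFOG.

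Both comparisons called 9 genes up: COL1A2, COL5A1, COL8A1, COL15A1, ITGA5, ITGA8, ITGAV, ITGB1 and ITGB3. Of all named genes, 8.35% passed as higher in both. COL11A1, COL6A2 and ITGB7 passed the test as higher in DFAT but not in DFOG, and COL5A2, LAMB1, NID2 and ITGA2 passed as higher in DFOG but not in DFAT. ITGB5 fell in DFAT and rose in DFOG. COL5A3 fell in DFAT, while LAMB2 and ITGA2B fell in DFOG, each without passing in the other comparison. The other 12 genes passed in neither. The estimates had the same sign in 27 of the 32 genes and in 60% of all named genes. Over the 32 genes they had a Pearson r of 0.46 across genes, which are not independent replicates. The 2 comparisons share no samples.

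**Figure D1:**
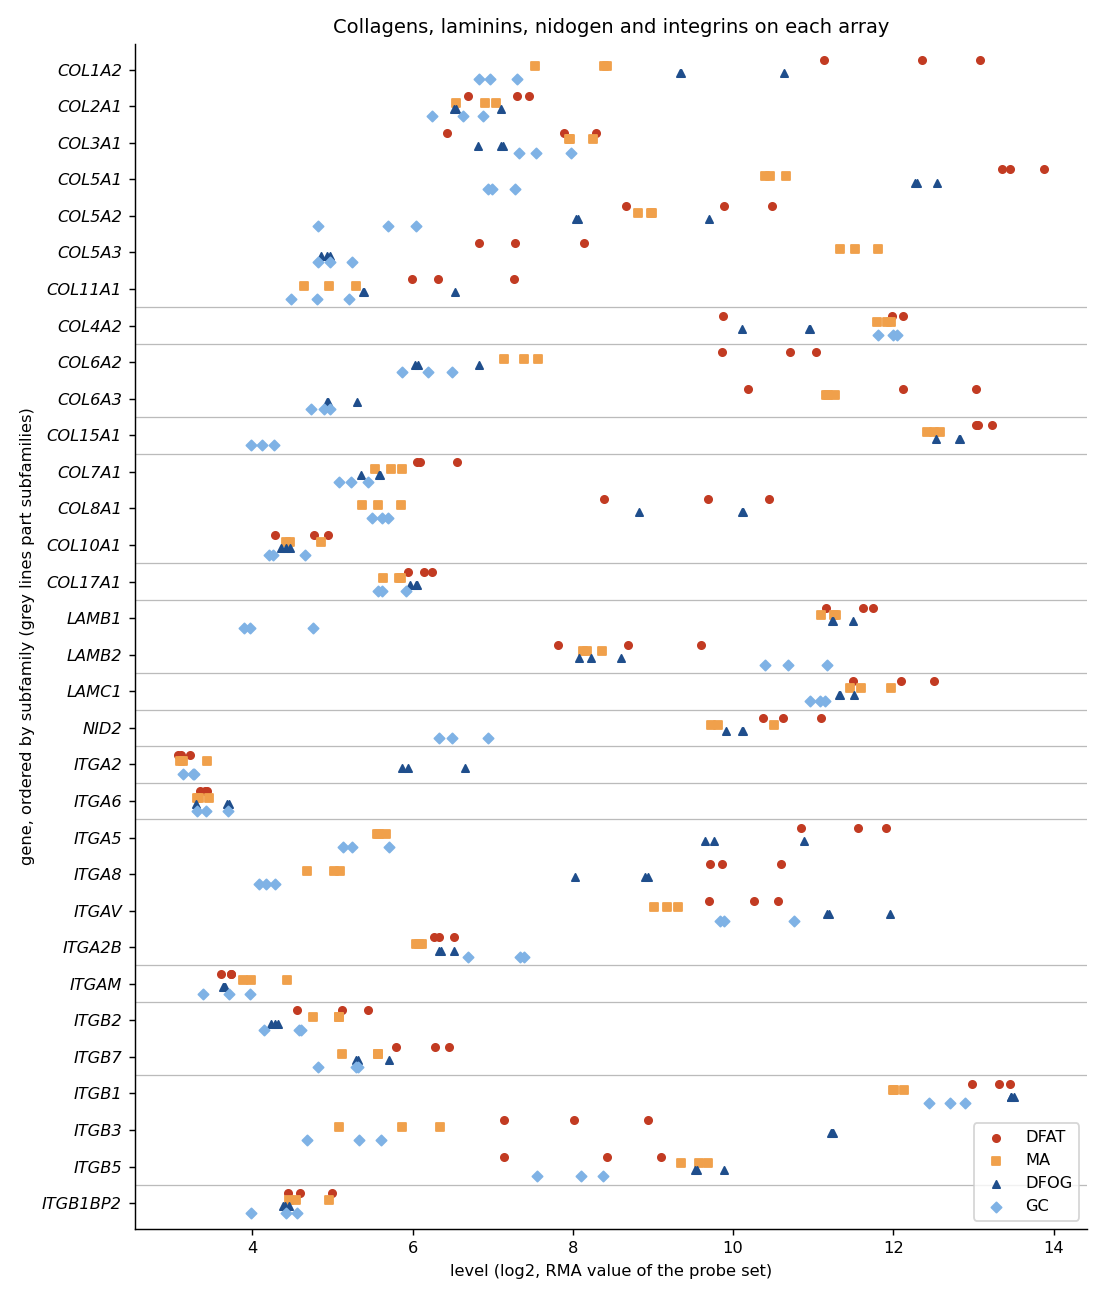
Log2 expression level (horizontal axis) of the 32 genes (rows, by subfamily, parted by grey lines) on the 12 arrays. Each point is 1 array, with colour and shape for DFAT, MA, DFOG and GC. The GC points of COL15A1, LAMB1 and NID2 lie far left of the other groups, and the DFAT and DFOG points of ITGA5 and ITGA8 lie far right of MA and GC.

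Among the fibrillar collagens, the chains of types I and V carried the large changes. COL1A2, a chain of type I collagen, the main collagen of most connective tissue, had 13.09, 12.36 and 11.14 in the DFAT arrays, against 7.52, 8.39 and 8.43 in the MA arrays. In DFOG it had 10.64, 9.35 and 9.33, against 6.83, 6.97 and 7.31 in GC. The groups did not overlap in either lineage. The change was 4.08 ± 0.47 (SE) in DFAT (adjusted p = 5.35e-05) and 2.96 ± 0.53 in DFOG (adjusted p = 0.0018), or 16.9-fold and 7.76-fold. A second COL1A2 probe set rose by 2.54 in DFAT (adjusted p = 0.0161) and differed by 1.57 in DFOG (adjusted p = 0.187).

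COL5A1, the type V chain that all common forms of that collagen contain, had 13.35, 13.88 and 13.46 in DFAT, against 10.66, 10.46 and 10.40 in MA. It had 12.55, 12.29 and 12.28 in DFOG, against 6.99, 6.94 and 7.28 in GC. Every cultured array lay above every uncultured one. COL5A1 rose by 3.06 ± 0.18 in DFAT (adjusted p = 3.33e-07) and by 5.34 ± 0.20 in DFOG (adjusted p = 2.48e-08). It had 6 probe sets, and 3 of the 5 others passed in the same direction in each comparison, with changes from -0.19 to 3.70 over those 5 in DFAT and 0.03 to 5.49 in DFOG.

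COL5A2, the usual partner chain of COL5A1, had 10.49, 9.88 and 8.67 in DFAT, against 8.81, 8.98 and 8.99 in MA, and the groups overlapped. In DFOG it had 9.70, 8.06 and 8.04, against 6.04, 4.82 and 5.70 in GC, a rise of 3.36 ± 0.56 (adjusted p = 0.00115). A second COL5A2 probe set rose in both lineages, by 0.67 in DFAT (adjusted p = 0.00633) and 0.84 in DFOG (adjusted p = 0.00447). COL5A2 and COL3A1 are neighbours in the RefSeq gene order, yet COL3A1 (type III collagen, a partner of type I in soft tissue) passed in neither comparison.

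COL5A3, a type V chain of restricted distribution, went the other way. It had 7.28, 6.82 and 8.14 in DFAT, against 11.81, 11.33 and 11.52 in MA. All DFAT arrays lay far below all MA arrays, and the fall was -4.14 ± 0.29 (adjusted p = 1.13e-06), 17.6-fold. In DFOG it had 4.86, 4.96 and 4.93, against 4.82, 5.24 and 4.96 in GC, with overlapping values and a difference of -0.11 (95% interval -0.82 to 0.60). The 2 other COL5A3 probe sets differed by -0.49 and -0.25 in DFAT against MA, and 1 of them passed.

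COL3A1 had 6.43, 7.89 and 8.29 in DFAT, against 7.96, 8.25 and 7.95 in MA, and 6.82, 7.13 and 7.11 in DFOG, against 7.54, 7.97 and 7.33 in GC. Its differences were -0.52 ± 0.39 (adjusted p = 0.366) and -0.64 ± 0.43 (adjusted p = 0.351). COL11A1, a fibrillar chain best known from cartilage, had 6.32, 7.27 and 5.99 in DFAT, against 4.64, 4.96 and 5.29 in MA. It rose by 1.56 ± 0.37 in DFAT (adjusted p = 0.00716). The DFOG estimate was 1.13 ± 0.41 (adjusted p = 0.0715, or 0.0378 without DFAT replicate 2), and with the actin value as a covariate the rise in DFAT was 1.05 (adjusted p = 0.249). A second COL11A1 probe set differed by 0.53 in DFAT (adjusted p = 0.194) and 0.62 in DFOG (adjusted p = 0.197). COL2A1, the main cartilage collagen, ranged from 6.24 to 7.45 over all arrays and passed in no comparison.

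Beyond the fibrils, type VI collagen, which forms beaded microfilaments around cells, set the lineages apart. COL6A2 had 9.86, 10.71 and 11.03 in DFAT, against 7.39, 7.14 and 7.56 in MA. It had 6.83, 6.07 and 6.03 in DFOG, against 5.87, 6.19 and 6.49 in GC. The DFAT arrays stood above all others, and the DFOG and GC arrays overlapped. COL6A2 rose by 3.17 ± 0.31 in DFAT (adjusted p = 1.4e-05), and its difference in DFOG was 0.26 ± 0.34 (adjusted p = 0.69).

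COL6A3, the large type VI chain, had 10.19, 12.12 and 13.03 in DFAT and 11.16, 11.27 and 11.18 in MA. The DFAT values straddled the MA values. The difference was 0.58 ± 0.53 (adjusted p = 0.46), and without DFAT replicate 1 it was 1.38 (adjusted p = 0.00136). In DFOG it had 4.95, 4.93 and 5.31, against 4.73, 4.97 and 4.90 in GC.

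COL15A1 encodes a collagen that sits at the outer face of basement membranes and tethers them to the fibrils below. It had 12.54, 12.83 and 12.82 in DFOG, against 4.27, 3.98 and 4.12 in GC. All DFOG arrays lay far above all GC arrays, with a rise of 8.56 ± 0.17 (adjusted p = 2.6e-10) against GC levels that cannot be told from background. In DFAT it had 13.06, 13.23 and 13.03, against 12.58, 12.42 and 12.50 in MA, a rise of 0.60 ± 0.15 (adjusted p = 0.00869). That small rise was 0.53 with the actin value as a covariate (adjusted p = 0.161).

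COL8A1, a short-chain collagen of sheet-like networks in vessel walls, rose by almost the same amount in both lineages. It had 8.39, 10.45 and 9.69 in DFAT, against 5.37, 5.57 and 5.86 in MA, and 8.83, 10.13 and 10.11 in DFOG, against 5.49, 5.61 and 5.69 in GC. The changes were 3.91 ± 0.45 and 3.87 ± 0.51 (adjusted p = 5.35e-05 and 0.000204). Its 3 other probe sets changed by 0.12 to 1.47 in DFAT and by -0.13 to 1.66 in DFOG, and 2 of them passed as higher in each.

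COL4A2, a chain of the type IV network, had 9.87, 11.98 and 12.12 in DFAT, against 11.92, 11.80 and 11.98 in MA. It had 10.11, 10.96 and 10.94 in DFOG, against 11.80 to 12.05 in the 3 GC arrays. All DFOG arrays lay below all GC arrays, but the difference of -1.42 ± 0.54 missed the threshold (adjusted p = 0.0811). In the fit without DFAT replicate 1 the same difference had an adjusted p of 0.00108.

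COL7A1, the collagen of anchoring fibrils under epithelia, had 6.05, 6.09 and 6.55 in DFAT and 5.87, 5.53 and 5.73 in MA, a difference of 0.52 ± 0.18 (adjusted p = 0.0507, or 0.0433 without DFAT replicate 1). COL10A1, known from growing cartilage, ranged from 4.21 to 4.95 over the 12 arrays, and COL17A1, a transmembrane collagen of epithelial anchoring junctions, from 5.57 to 6.24. Neither passed in any comparison.

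**Figure D2:**
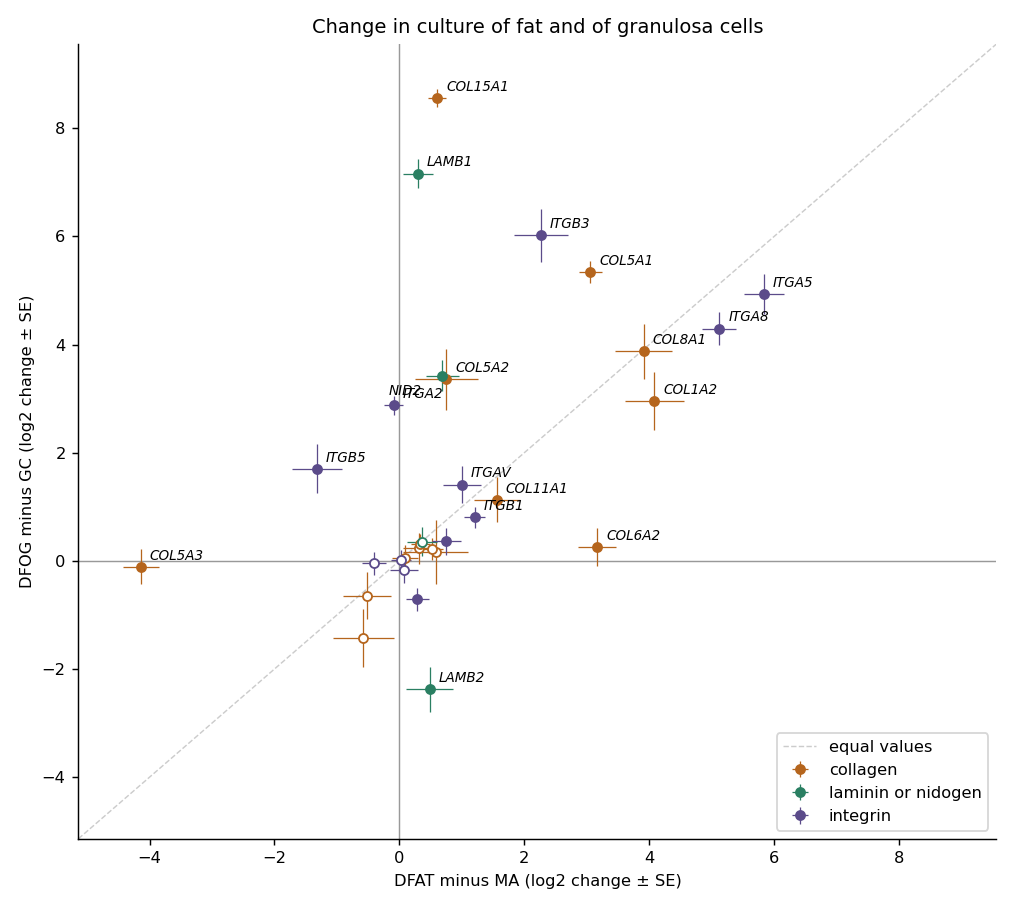
Log2 change in DFAT against MA (horizontal axis) and in DFOG against GC (vertical axis) for the 31 collagen, laminin, nidogen and integrin chains, coloured by family, with SE bars. Filled points passed the test in at least 1 of the 2 comparisons, and the dashed line marks equal change. COL15A1 and LAMB1 stand at the top near no change in DFAT, and COL5A3 stands alone at the left.

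Among the laminin and nidogen genes, LAMB1, LAMB2 and NID2 changed in the granulosa lineage. In DFAT against MA the 4 estimates lay between 0.30 and 0.69, and each missed the threshold. LAMB1, the β chain of the widespread laminins, had 11.50, 11.25 and 11.23 in DFOG, against 3.89, 4.76 and 3.97 in GC. The rise was 7.16 ± 0.27 (adjusted p = 2.48e-08), and a second probe set rose by 4.47. In 2 of the 3 GC arrays the level could not be told from background. In DFAT it had 11.16, 11.63 and 11.74, against 11.28, 11.10 and 11.27 in MA, overlapping values that differed by 0.30 ± 0.24 (adjusted p = 0.403).

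LAMB2, the alternative β chain found at synapses and in the kidney filter, moved against LAMB1. It had 8.60, 8.08 and 8.23 in DFOG, against 11.18, 10.39 and 10.69 in GC, with no overlap, and fell by -2.38 ± 0.42 (adjusted p = 0.00159). In DFAT it had 7.81, 8.69 and 9.60, against 8.12, 8.36 and 8.17 in MA, which overlapped (0.48 ± 0.37, adjusted p = 0.379; without DFAT replicate 1, 0.93 and 0.0379). DFOG cells thus had more LAMB1 signal and less LAMB2 signal than GC.

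LAMC1, the γ chain shared by most laminins, differed by 0.36 ± 0.24 in DFAT (adjusted p = 0.302) and 0.36 ± 0.27 in DFOG (adjusted p = 0.411). It ranged from 10.96 to 12.51 over the arrays. Its probe sets disagreed: the 3 others changed by -0.95 to -0.80 in DFAT against MA and by 0.73 to 1.19 in DFOG against GC, and 1 of them passed in each comparison. Without DFAT replicate 1 the difference in DFAT was 0.63 (adjusted p = 0.0363).

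NID2, which bridges laminin and type IV collagen, had 9.91, 10.13 and 10.11 in DFOG, against 6.95, 6.33 and 6.49 in GC. The groups did not overlap, and the rise was 3.43 ± 0.29 (adjusted p = 7.87e-06). In DFAT it had 10.62, 11.10 and 10.38, against 10.51, 9.72 and 9.81 in MA, where 1 MA array lay inside the DFAT range. That difference of 0.69 ± 0.26 missed the threshold (adjusted p = 0.0672). It passed without MA replicate 1 (0.93, adjusted p = 0.0177) and without DFAT replicate 3 (0.85, adjusted p = 0.0454).

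Of the 12 integrin genes, 6 rose and 1 fell in DFAT, and 7 rose and 1 fell in DFOG. The largest rises were those of ITGA5 and ITGA8 in DFAT and of ITGB3 in DFOG. ITGA5, the α chain of the classical fibronectin receptor, had 10.84, 11.91 and 11.56 in DFAT, against 5.58, 5.66 and 5.55 in MA. It had 10.89, 9.65 and 9.76 in DFOG, against 5.25, 5.70 and 5.13 in GC. The cultured and uncultured arrays were far apart in both lineages, with rises of 5.84 ± 0.32 (57.3-fold, adjusted p = 2.15e-07) and 4.94 ± 0.36 (30.6-fold, adjusted p = 2.69e-06). A second ITGA5 probe set changed by 2.92 and 1.97, and passed in DFAT alone.

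ITGA8, an α chain that binds fibronectin, tenascin and nephronectin and is known from smooth muscle and mesenchymal cells, had 9.71, 9.86 and 10.59 in DFAT, against 5.02, 5.09 and 4.69 in MA. It had 8.03, 8.94 and 8.90 in DFOG, against 4.09, 4.28 and 4.17 in GC. Again no arrays overlapped. ITGA8 rose by 5.12 ± 0.27 in DFAT (adjusted p = 1.53e-07) and by 4.29 ± 0.30 in DFOG (adjusted p = 1.93e-06), and both of its other probe sets rose in each comparison.

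The β partner of both, ITGB1, rose less. It had 12.98, 13.45 and 13.32 in DFAT, against 11.99, 12.01 and 12.14 in MA, and 13.51, 13.47 and 13.47 in DFOG, against 12.90, 12.71 and 12.44 in GC. Each cultured group lay above its source. The rises were 1.21 ± 0.17 (adjusted p = 0.000231) and 0.81 ± 0.19 (adjusted p = 0.00918). The rise in DFOG was 0.64 with the actin value as a covariate (adjusted p = 0.111), 0.11 (adjusted p = 0.791) after centring on the poly-A controls and 0.79 without DFOG replicate 1 (adjusted p = 0.0676).

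ITGAV, the α chain that pairs with several β chains to bind vitronectin and fibronectin, had 9.69, 10.56 and 10.26 in DFAT, against 9.01, 9.18 and 9.31 in MA. It had 11.96, 11.17 and 11.19 in DFOG, against 10.77, 9.84 and 9.88 in GC. The groups were separate, with rises of 1.0 ± 0.31 (adjusted p = 0.0266) and 1.41 ± 0.34 (adjusted p = 0.0106). With the actin value as a covariate the rises were 0.19 (adjusted p = 0.8) and 0.79 (adjusted p = 0.179). The rise in DFAT also missed the threshold without DFAT replicate 2 or 3 or any 1 of the MA replicates (adjusted p = 0.0504 to 0.1), and that in DFOG without DFOG replicate 1 (adjusted p = 0.138).

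ITGB3, a β partner of ITGAV, showed its large rise in the granulosa lineage. It had 11.22, 11.25 and 11.23 in DFOG, against 4.69, 5.60 and 5.33 in GC, a rise of 6.02 ± 0.49 (65.1-fold, adjusted p = 5.5e-06). In DFAT it had 8.93, 7.14 and 8.01, against 5.08, 5.87 and 6.34 in MA, a rise of 2.26 ± 0.44 (adjusted p = 0.00197). Neither lineage showed any overlap. ITGB3 is also abundant on platelets. The 5 platelet and erythrocyte marker genes differed by -0.58 to 0.31 in DFOG against GC, and any part of platelets in the ITGB3 result was not tested.

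ITGB5, another β partner of ITGAV and a vitronectin receptor chain, had opposite changes. It had 7.15, 8.42 and 9.10 in DFAT, against 9.69, 9.35 and 9.58 in MA, and fell by -1.32 ± 0.40 (adjusted p = 0.0275). In DFOG it had 9.88, 9.53 and 9.55, against 8.10, 7.55 and 8.38 in GC, and rose by 1.70 ± 0.45 (adjusted p = 0.0172). The arrays were separate in each lineage. With the actin value as a covariate the changes were -1.14 (adjusted p = 0.278) and 1.84 (adjusted p = 0.0642), and without any 1 of the MA replicates or DFAT replicate 1 the fall in DFAT did not pass (adjusted p = 0.053 to 0.0789). Without DFAT replicate 1 that fall was -0.78, and the rise in DFOG did not pass without DFOG replicate 1 or GC replicate 2 (adjusted p = 0.126 and 0.0604).

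ITGA2, the α chain of a collagen receptor, was raised in DFOG. It had 5.94, 5.86 and 6.65 there, against 3.28, 3.26 and 3.14 in GC, a rise of 2.88 ± 0.17 (adjusted p = 5.41e-07). In DFAT it had 3.11, 3.23 and 3.07, against 3.44, 3.10 and 3.14 in MA, with overlapping values. The ITGA2 levels in GC, MA and DFAT cannot be told from background, so the rise in DFOG has no exact size. A second ITGA2 probe set differed by 0.32 in DFOG against GC and did not pass. Of 7 epithelial and mesothelial markers, 2 rose in DFOG against GC (the keratins KRT19 by 4.48 and KRT8 by 1.2), where 17.3% of all named genes rose. The median over the 7 was -0.07, and their part in the ITGA2 result was not tested.

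ITGA2B, the α chain of the platelet fibrinogen receptor, had 6.51, 6.35 and 6.33 in DFOG, against 6.69, 7.34 and 7.39 in GC, and fell by -0.71 ± 0.21 (adjusted p = 0.0304). ITGB7, a lymphocyte β chain, had 6.28, 6.46 and 5.79 in DFAT, against 5.57, 5.57 and 5.12 in MA, and rose by 0.75 ± 0.23 (adjusted p = 0.0257). Both changes were small, although the groups did not overlap, and ITGB7's other probe set differed by -0.12. The ITGA2B fall did not pass without GC replicate 2, GC replicate 3 or DFOG replicate 1 (adjusted p = 0.0913 to 0.105), nor the ITGB7 rise without MA replicate 3, DFAT replicate 1 or DFAT replicate 2 (adjusted p = 0.0669 to 0.102).

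The leukocyte integrin chains ITGAM and ITGB2 passed in no comparison. In DFAT, 8 of 10 macrophage and myeloid markers fell, beside 20.4% of all named genes. ITGAM lay under 4.48 on all 12 arrays, where levels cannot be told from background, so no fall could be read. ITGAM had 3.73, 3.61 and 3.74 in DFAT and 3.89, 3.98 and 4.43 in MA, a difference of -0.41 ± 0.19 (adjusted p = 0.131). ITGB2 had 4.56, 5.12 and 5.45 in DFAT and 4.75, 5.08 and 5.08 in MA, and differed by 0.07 ± 0.23 (adjusted p = 0.859). ITGA6, a laminin receptor chain, ranged from 3.30 to 3.71 over all 12 arrays, and ITGB1BP2 from 3.98 to 4.99. Both ranges reach down to levels that cannot be told from background.

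The size of the change itself differed between the lineages for 12 of the 32 genes. The test of the difference, DFAT minus MA less DFOG minus GC, was positive for 3 genes and negative for 9, where 13.2% of all named genes were positive and 15.9% negative. With poly-A centring, which moved the median difference of all probe sets to 1.27 from -0.05, 18 genes were positive and 7 negative.

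Of the 9 negative differences, 7 belonged to genes that rose in DFOG and did not pass as lower in DFAT. COL15A1 differed by -7.96 ± 0.22 (adjusted p = 1.39e-08), LAMB1 by -6.87 ± 0.36 (adjusted p = 5.13e-07) and ITGB3 by -3.76 ± 0.65 (adjusted p = 0.00168). ITGA2 differed by -2.96 ± 0.23, NID2 by -2.74 ± 0.39, COL5A2 by -2.60 ± 0.75 and COL5A1 by -2.29 ± 0.27. COL5A3 differed by -4.03 ± 0.43 through its fall in DFAT, and ITGB5 by -3.02 ± 0.61 through changes of opposite sign.

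On the positive side, COL6A2 differed by 2.91 ± 0.46 (adjusted p = 0.000933) through its rise in DFAT. LAMB2 differed by 2.86 ± 0.56 (adjusted p = 0.0035) and ITGA2B by 1.0 ± 0.28 (adjusted p = 0.0259), both through their falls in DFOG. Averaging all probe sets of a gene left COL5A1 at -0.82 (adjusted p = 0.0906), and brought LAMC1 (-1.33, adjusted p = 0.024) and ITGA8 (1.12, adjusted p = 0.00231) past the threshold. The second COL5A2 probe set differed by -0.17 (adjusted p = 0.683). The 2 other COL5A3 probe sets differed by 0.06 and -0.43, the second ITGA2 probe set by -0.44, and none of them passed. The 3 other LAMC1 probe sets differed by -2.11 to -1.54, and each passed. COL5A2 missed the threshold without GC replicate 2, DFOG replicate 1, MA replicate 2 or MA replicate 3 (adjusted p = 0.0604 to 0.148), and ITGA2B without GC replicate 2 or 3, DFOG replicate 1, MA replicate 2 or DFAT replicate 2 (adjusted p = 0.0557 to 0.0644). For COL8A1 the difference was 0.04, with a 95% interval of -1.46 to 1.54, and for COL1A2 it was 1.12, with an interval of -0.44 to 2.69.

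**Figure D3:**
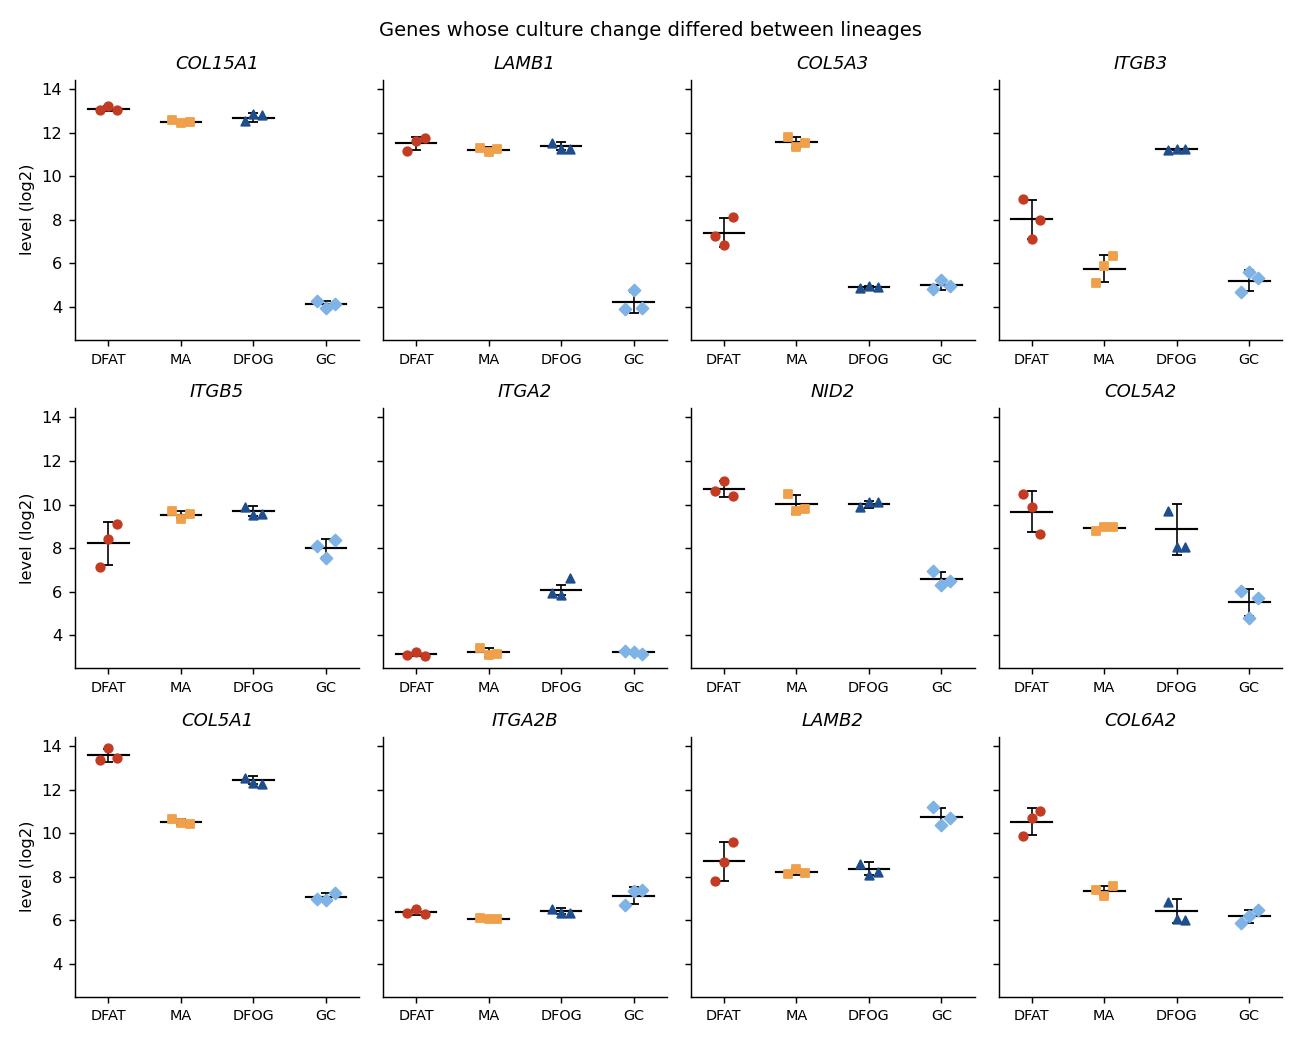
Log2 expression of the 12 genes whose change differed between lineages, in DFAT, MA, DFOG and GC. Points are arrays, horizontal bars are means and error bars SD (DFOG from 2 samples). GC bars are the lowest of the 4 groups for COL15A1, LAMB1, NID2, COL5A1 and COL5A2, and MA bars the highest for COL5A3.

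The source cells already differed. In MA against GC, 10 of the 32 genes were higher and 4 lower, where 26.8% of all named genes were higher and 22.6% lower. With poly-A centring, which moved the median of all probe sets to -1.20 from 0.07, 7 were higher and 17 lower. LAMC1 missed the threshold (0.61 ± 0.24, adjusted p = 0.0618). Its 3 other probe sets were higher in MA by 2.13 to 2.56, and each passed. This comparison and the ones above share the MA and GC arrays, so the values are set side by side only.

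COL15A1 was higher in MA than in GC by 8.38 ± 0.15 (adjusted p = 9.74e-11), LAMB1 by 7.01 ± 0.24 (adjusted p = 3.94e-09), COL5A3 by 6.54 ± 0.29 (adjusted p = 2.04e-08) and COL6A3 by 6.34 ± 0.53 (adjusted p = 2.69e-06). COL5A1, NID2 and COL5A2 were higher by 3.43, 3.43 and 3.41. The second COL5A2 probe set was higher by 0.77, and the 5 other COL5A1 probe sets by 0.22 to 2.67. The 2 other COL5A3 probe sets were higher by 0.26 and 0.32 without passing. Lower in MA were LAMB2, by -2.53 ± 0.37 (adjusted p = 0.000228), ITGA2B by -1.06 ± 0.19, ITGAV by -1.0 ± 0.31 and ITGB1 by -0.64 ± 0.17. ITGB5, COL6A2 and ITGA8 were higher by 1.53, 1.18 and 0.75. The ITGA8 levels in GC cannot be told from background, and its 2 other probe sets differed by 0.28 and 0.36 without passing. With poly-A centring, COL6A2 and ITGA8 had differences of -0.092 and -0.52 and ITGB5 of 0.26 (adjusted p = 0.573), none past the test. ITGA8 also missed the threshold without any 1 of the MA or GC replicates or DFAT replicate 2 (adjusted p = 0.0502 to 0.131), and ITGAV without MA replicate 1, MA replicate 2 or GC replicate 1 (adjusted p = 0.0574 to 0.0804).

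Between the dedifferentiated cells, DFAT against DFOG, 7 genes were higher and 3 lower, where 4.86% of all named genes were higher and 5.5% lower. All 7 but ITGA8 were collagens. COL6A3 was higher in DFAT by 6.75 ± 0.59 (adjusted p = 2.7e-05), COL6A2 by 4.09 ± 0.34 (adjusted p = 2.1e-05) and COL5A3 by 2.51 ± 0.32 (adjusted p = 0.000459). COL1A2 was higher by 2.20 ± 0.53, ITGA8 by 1.58 ± 0.30, COL5A1 by 1.15 ± 0.20 and COL7A1 by 0.76 ± 0.20 (adjusted p = 0.0455). ITGB3, ITGA2 and ITGAV were lower in DFAT, by -3.20 ± 0.49, -2.96 ± 0.17 and -1.40 ± 0.34. Some of these did not pass without 1 array: COL1A2 without DFAT replicate 1 or 2 (adjusted p = 0.0561 and 0.0742), ITGA8 without DFOG replicate 1 (adjusted p = 0.0993), ITGAV without DFOG replicate 1, DFAT replicate 1 or DFAT replicate 3 (adjusted p = 0.0512 to 0.3). COL5A1 was higher by 0.55 with its probe sets averaged (adjusted p = 0.244), and after centring on the poly-A controls its adjusted p was 0.0584. The 2 other COL5A3 probe sets differed by 0.32 and -0.11, the second COL1A2 probe set by 1.09 and the second ITGA2 probe set by -0.33. None of these passed. COL7A1 missed the threshold in 8 of the fits that left out 1 array (adjusted p = 0.0527 to 0.33).

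COL5A1, COL5A3, COL6A2, COL6A3, ITGA8 and ITGAV passed in the same direction between the source cells and between the dedifferentiated cells, which is 6 of the 14 genes that passed in MA against GC and 6 of the 10 in DFAT against DFOG. No other probe set of COL5A1, COL5A3 or ITGA8 passed in both. Of all named genes that passed, those with the same direction in both made up 12.1% in MA against GC and 57.6% in DFAT against DFOG.  For several genes with a large difference between the source cells, the dedifferentiated cells differed little. LAMB1 differed by 0.14 (95% interval -0.45 to 0.73) between DFAT and DFOG, LAMB2 by 0.33 (-0.59 to 1.25), COL15A1 by 0.42 (0.06 to 0.79) and NID2 by 0.69 (0.04 to 1.33). Some of these intervals leave out 0 while their adjusted p missed the threshold.

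**Figure D4:**
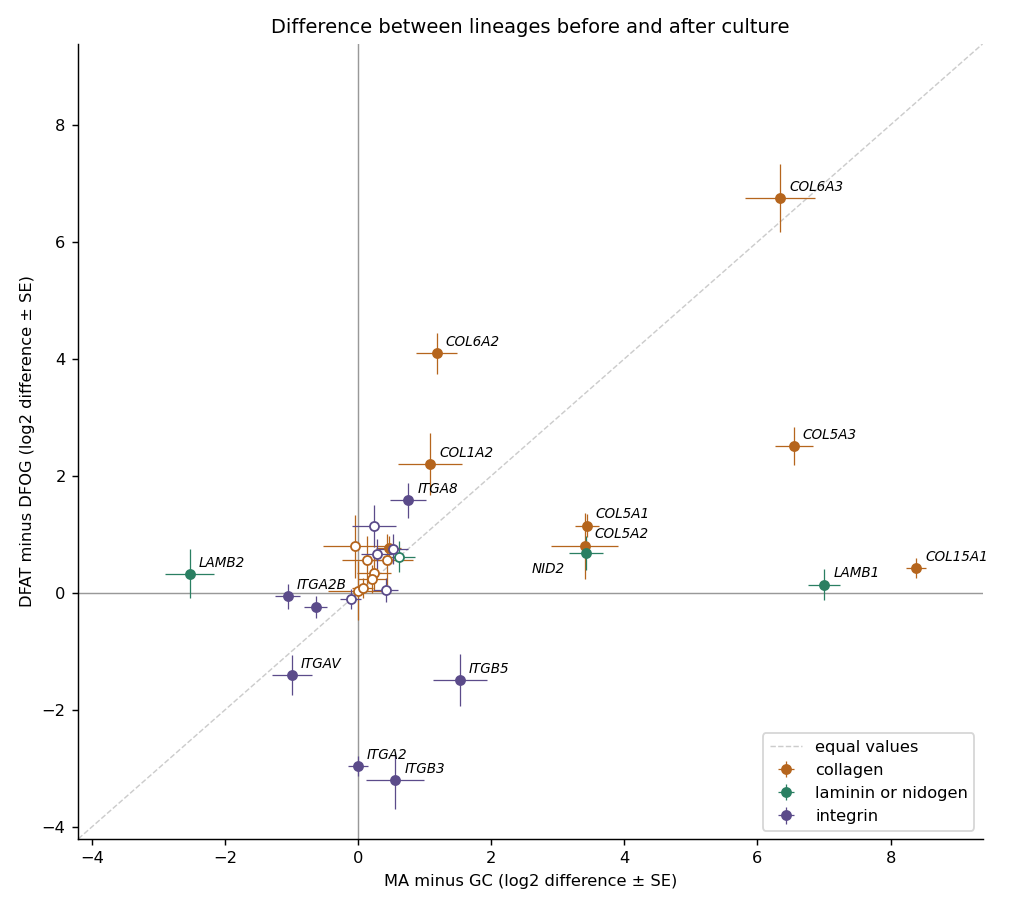
Log2 difference of MA against GC (horizontal axis) and of DFAT against DFOG (vertical axis) for the 31 chains, coloured by family, with SE bars. Filled points passed in at least 1 of the 2 comparisons and the dashed line marks equal differences. COL6A3 lies close to that line at the upper right, and COL15A1 and LAMB1 lie at the right close to a difference of 0 between DFAT and DFOG.

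The genes that build, modify and bind this matrix were read from lists chosen with earlier results of these data known. Their counts stand beside 20.7% higher and 20.4% lower among all named genes in DFAT against MA, and 17.3% and 13.4% in DFOG against GC. Of 11 collagen processing and crosslinking genes, 9 rose in DFAT against MA (median 1.52), and 6 rose and 2 fell in DFOG against GC (median 0.85). LOX, the enzyme that crosslinks collagen and elastin, had 10.95, 11.64 and 11.73 in DFAT, against 8.69 to 9.07 in the 3 MA arrays, and 12.34, 11.98 and 11.95 in DFOG, against 5.37, 5.13 and 5.58 in GC. Its rises were 2.53 ± 0.23 and 6.79 ± 0.26. LOXL1, a LOX relative, P4HA2, a prolyl hydroxylase, and PLOD1, a lysyl hydroxylase, rose in DFAT by 3.84, 3.22 and 2.78. In DFOG, LOXL1 and P4HA2 also rose, by 1.81 and 1.44, and PLOD1 missed the threshold (0.85, adjusted p = 0.0585). PCOLCE2, which helps cut procollagen, rose by 6.82 in DFOG and LOXL4 by 2.57, while BMP1, the procollagen C-proteinase, fell by -2.80. In DFAT, PCOLCE2 rose by 0.94, and LOXL4 and BMP1 did not pass.

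Of 12 other matrix ligands of integrins, 7 rose and 2 fell in DFAT (median 1.05). In DFOG, 9 rose and 1 fell (median 2.97). VTN, vitronectin, fell in both lineages, by -1.47 in DFAT and -1.31 in DFOG. FN1, fibronectin, the ligand of the ITGA5 receptor, had 13.53, 14.29 and 14.09 in DFAT, against 9.33, 9.66 and 9.80 in MA, and 13.63, 13.71 and 13.71 in DFOG, against 6.14, 5.94 and 5.71 in GC. All cultured arrays were higher, by 4.38 ± 0.22 and 7.74 ± 0.24. SPP1, osteopontin, rose by 5.71 in DFAT and 5.47 in DFOG, and TNC, tenascin C, by 6.98 and 3.19. THBS2 and THBS1, the thrombospondins, rose by 4.65 and 4.27 in DFOG. In DFAT, THBS1 rose by 1.10 and THBS2 did not pass. PLAT, which rose by 3.49 in DFAT and 2.75 in DFOG, is a plasminogen activator and no structural ligand. It is counted among the genes that rose.

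Of 10 genes of the integrin adhesion machinery, 6 rose and 1 fell in DFAT (median 2.31), and 9 rose in DFOG (median 2.44). ACTN1, an actin crosslinker at adhesion sites, rose by 4.61 ± 0.18 in DFAT and 5.63 ± 0.20 in DFOG, and PDLIM7, a LIM adaptor, by 4.97 and 4.56. FLNA, filamin A, rose by 4.79 and 2.58, TES by 4.79 and 1.17, and CSRP1 by 2.22 and 3.23. Between DFAT and DFOG the differences of the 10 genes ran from -0.50 to 0.63. Of 6 other collagen and laminin receptors, 4 rose and 1 fell in DFAT (median 0.88) and 4 rose in DFOG (median 1.10), led by SDC1, syndecan 1, with 4.09 and 3.75. SDC4, its relative, had changes of opposite sign, -0.99 and 1.69. SDC2 rose by 1.08 and 2.10. CD47 rose by 1.05 in DFAT and RPSA by 0.52 in DFOG, each without passing in the other comparison.

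The 5 other basement membrane proteins did not follow. In DFAT 3 fell (median -1.89): SPARCL1 by -4.87 ± 0.30, TINAGL1 by -2.56 ± 0.37 and EGFLAM by -1.89 ± 0.15. In DFOG SPARC, a collagen-binding glycoprotein, rose by 2.09 ± 0.17 and the other 4 did not pass. The endothelial marker PECAM1 had a mean of 7.12 in DFAT and 8.77 in MA. In DFAT, 4 of 10 endothelial markers fell and 2 rose, beside 20.4% and 20.7% of all named genes. Whether these falls move with fewer endothelial cells was not tested.

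**Figure D5:**
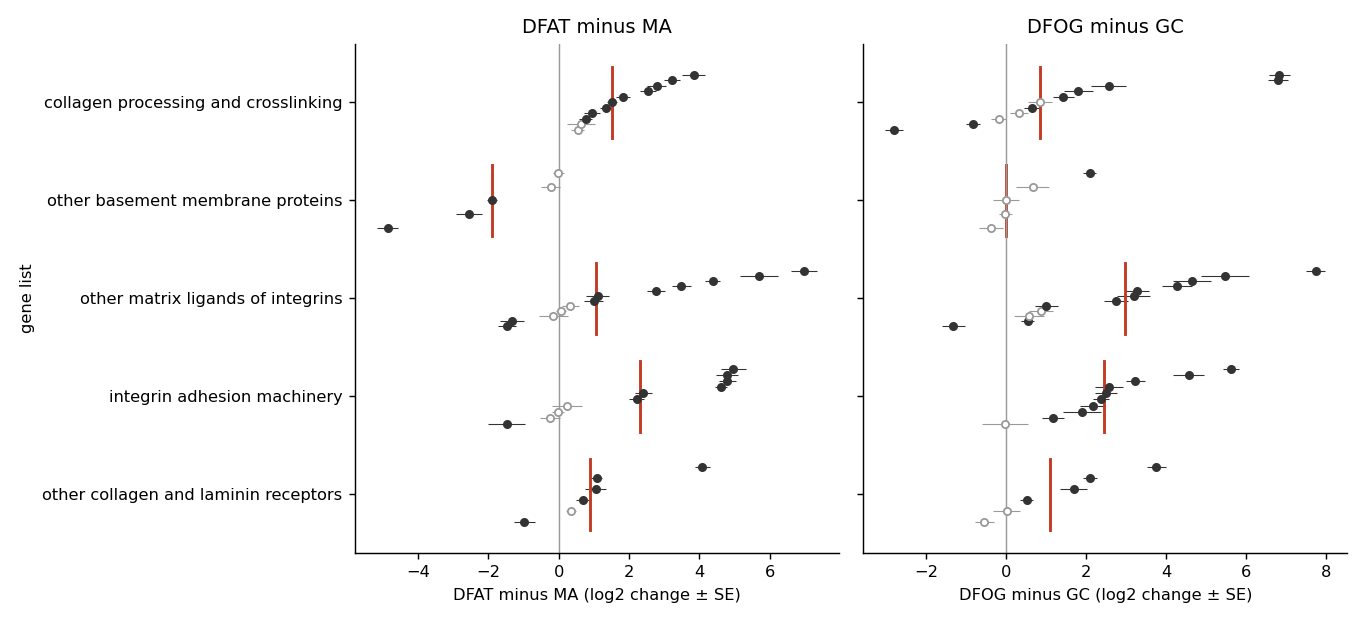
Log2 change (horizontal axis) of each gene of the 5 lists (rows), in DFAT against MA (left) and DFOG against GC (right). Filled points passed the test, open points did not, and the red line is the list's median. Horizontal bars are SE. The adhesion machinery lies mostly right of 0 in both panels, and the basement membrane list lies at or left of 0 in DFAT against MA.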

How the data were processed

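RNA of 12 samples, 3 each of DFAT, MA, DFOG and GC, was hybridised to the Affymetrix porcine genome array after labelling by amplification from the 3′ end, per the labels' protocols. The deposited table holds log2 values that the authors made by RMA (robust multi-array averaging), per the submitters' processing notes, with version and settings not given in the sources used here. Array values carry no counts, so the number of arrays limits the precision.

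Of 24123 probe sets, 124 controls were left out. The annotation gave 10069 probe sets 1 symbol, 198 several and 13732 none. The 58 probe sets of the 32 genes all kept their symbol when matched by gene identifier to RefSeq. The deposited values were fitted with limma 3.58.1 in R 4.3.3, with 1 mean per group over 11 samples (DFOG replicates 2 and 3 averaged) and 7 residual degrees of freedom, and Benjamini-Hochberg adjustment over 23999 probe sets. Errors of changes are SE from this fit. The scripts were tested on simulated data.

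The genes, lists and tests were chosen with earlier results of these data known. Every gene of the families is accounted for. Named in full are the largest changes past the test per subfamily and comparison, every nidogen, and up to 4 genes of each list per dedifferentiation comparison with the largest change past the test. Values of COL3A1, COL4A2, COL7A1, LAMC1, ITGAM, ITGB2, ADIPOQ, INHA, KRT8, KRT19, PECAM1 and VTN are given outside this rule. They were chosen after being seen. The alternatives were separate arrays, quantile normalization again, poly-A centring, a filter on dim probe sets, all probe sets of a gene averaged, the actin value as covariate, array weights, an intensity trend, a replicate block, and each array left out in turn. Sequences are not used here, and RefSeq positions served only for the gene order of COL5A2 and COL3A1.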

Additional observations from a re-analysis of the deposited data

Results flagged for a closer look

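For 12 genes the change from source to dedifferentiated cells differed between the lineages by the test of the difference itself, given here as DFAT minus MA less DFOG minus GC, with the limma adjusted p. Negative values were found for COL15A1 (-7.96, adjusted p = 1.39e-08), LAMB1 (-6.87, 5.13e-07), COL5A3 (-4.03, 6.44e-05), ITGB3 (-3.76, 0.00168) and ITGB5 (-3.02, 0.004). The same direction held for ITGA2 (-2.96, 6.31e-06), NID2 (-2.74, 0.000454), COL5A2 (-2.60, 0.0283) and COL5A1 (-2.29, 0.000125). Positive values were found for COL6A2 (2.91, 0.000933), LAMB2 (2.86, 0.0035) and ITGA2B (1.0, 0.0259). No other probe set of COL5A3, COL5A2 or ITGA2 passed this test.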

How the results depend on the processing

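After each array was centred on its poly-A controls, 22 genes passed in DFAT against MA (14 in the fit as reported), 25 in the difference between lineages (12) and 24 in MA against GC (14), while the median of all probe sets moved to 0.55, 1.27 and -1.20. The COL6A2 and ITGA8 differences between MA and GC were then -0.092 and -0.52. The other alternatives kept each count within 1.5 times. Leaving out 1 array gave 11 to 16 genes in DFAT against MA, 12 to 17 in DFOG against GC, 10 to 14 in the difference, 12 to 17 in MA against GC and 8 to 13 in DFAT against DFOG. Without DFAT replicate 1, COL3A1, COL4A2, LAMC1, ITGA5 and ITGB2 also passed in DFAT against DFOG (1.12, 1.52, 0.88, 1.44 and 1.0), and COL4A2 and COL6A3 in the difference between lineages (1.57 and 1.21). Of 66 calls on single genes, 11 were lost with the actin covariate, 12 with poly-A centring and none with array weights; the cause was not tested.

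Deviations of same-numbered DFAT and MA arrays correlated at 0.0999, 0.168 and 0.126, and those of DFOG and GC at 0.604, 0.514 and 0.355, the DFOG arrays being 2 distinct samples. The numbers were taken not to pair the samples. Every DFAT and MA array correlated best with its own number, as a hint from the data. The fit with the replicate block took every array as a sample of its own, so the near-identical DFOG arrays were not averaged in it. It also tied same-numbered arrays of fat and ovary to each other. In this fit, 15, 17, 12, 16 and 14 genes passed in the 5 comparisons, and all 66 calls were kept. Its adjusted p-values for comparisons with DFOG count the near-identical arrays as separate samples. Among the calls gained, COL4A2 fell in DFOG against GC (-1.28, adjusted p = 0.0261) and COL7A1 rose in DFAT against MA (0.52, adjusted p = 0.027). With the near-identical DFOG arrays averaged and no block, the COL4A2 difference was -1.42 and missed the threshold (adjusted p = 0.0811).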
